A study of Mus musculus with 6 samples.

Results

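The stefin A genes of mouse chromosome 16 are a cluster of closely related copies, and 6 of them were taken up here by name: Stfa1, Stfa2, Stfa3, Stfa2l1, BC100530 and BC117090. Of these, 5 were among the 34199 gene symbols counted. The symbol BC117090 is not among them and has no value here. The genes were selected on the read counts of Stfa1 and BC100530, which were far higher in HOXA9 OFF than in control cells, so the HOXA9 OFF values below describe that choice and carry no test for these genes.

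The libraries came from iGMPs, a granulocyte-macrophage progenitor-like line made from C57Bl/6 mouse bone marrow. These cells carry a Lysozyme promoter-driven GFP reporter and self-renew while a HOXA9 protein fused to a mutant (G400V) estrogen receptor domain is kept active by estradiol, together with stem cell factor. In CAF-1 OFF cells, 500 µM IPTG for 24 h induced a hairpin RNA that targets Chaf1b, the gene of a subunit of CAF-1 (a histone chaperone), with estradiol at 150 ng/ml. Control cells also received IPTG for 24 h in estradiol. The study describes an inducible hairpin vector with a spacer sequence for its controls. In HOXA9 OFF cells, estradiol was washed out for 24 h. The labels do not say which clone was used for each library or whether HOXA9 OFF cells received IPTG, so clone, IPTG and loss of estradiol cannot be told apart in that comparison. Each group had 2 libraries, and the labels do not say whether these came from separate cultures or sub-clones, so the p-values measure only the spread between libraries.

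Stefins are small cytosolic proteins of the cystatin superfamily. They lack a signal peptide and block papain-like cysteine proteases, such as cathepsins B, H, L and S, by pushing their amino terminus and hairpin loops into the active site. Stefin A is known from epithelia and from neutrophil-lineage cells, and rodents carry an expanded set of stefin A genes where humans have a single CSTA gene.

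Gene-assigned reads numbered from 16773560 to 25170898 per library. The knockdown target Chaf1b had 342 and 239 counts in the CAF-1 OFF libraries, 2290 and 1810 in the controls, and 1339 and 1012 in HOXA9 OFF cells. It was lower in CAF-1 OFF by the edgeR quasi-likelihood test (log2 fold change -2.71 ± 0.20 (SE), FDR = 0.0198), where FDR is the Benjamini-Hochberg adjusted p over all genes tested. It was also lower in HOXA9 OFF (-0.63 ± 0.18 (SE), edgeR FDR = 0.0396). The progenitor markers Mpo, Elane, Prtn3, Ctsg, Cebpa, Kit, Cd34 and Flt3 summed to between 11587 and 17142 CPM in every library, where CPM is a count scaled to a common library size. Mpo took much of this sum (4109 to 8546 CPM), and Flt3, Cd34, Kit and Ctsg were called lower in HOXA9 OFF.

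How close the copies are in sequence sets how reads can be assigned to them. The stretches below are 75 coding bases around the first hairpin loop, read 5′ to 3′ from the NCBIM37 (mm9) annotation, and are shown because they contain the codons of the conserved QxVxG loop at bases 31 to 45. Stfa1 is written in lower case, and a capital in another gene marks a base that differs from Stfa1. Gm5483 is a further stefin A copy of the same cluster.
Stfa1: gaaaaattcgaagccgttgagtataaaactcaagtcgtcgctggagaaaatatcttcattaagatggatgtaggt
BC100530: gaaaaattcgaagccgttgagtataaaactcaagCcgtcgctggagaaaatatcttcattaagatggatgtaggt
Stfa3: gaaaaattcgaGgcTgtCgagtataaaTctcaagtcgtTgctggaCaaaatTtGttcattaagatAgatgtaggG
Stfa2l1: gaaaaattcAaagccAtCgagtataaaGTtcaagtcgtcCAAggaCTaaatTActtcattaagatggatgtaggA
Stfa2: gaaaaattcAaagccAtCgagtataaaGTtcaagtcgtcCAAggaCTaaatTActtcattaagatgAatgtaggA
Gm5483: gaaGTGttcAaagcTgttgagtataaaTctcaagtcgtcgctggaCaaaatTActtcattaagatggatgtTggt
BC100530 differed from Stfa1 by 1 of the 75 bases, and that base lies within the loop. Stfa2 and Stfa2l1 differed from Stfa1 by 14 and 13 bases, of which 3 each lie within the loop.

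Over the aligned coding sequence, Stfa1 and BC100530 were identical at 288 of 294 bases (98.0%), and Stfa2 and Stfa2l1 at 301 of 312 bases (96.5%). Stfa3 shared at most 84.7% of its aligned coding bases with any other copy. The members are therefore not equally close copies, with Stfa1 beside BC100530, Stfa2 beside Stfa2l1, and Stfa3 apart from both.

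The authors counted with HTSeq-count, which does not count a read with more than 1 alignment, and the read length is not stated. The share of transcript windows found at only 1 place in the genome or among the copies' transcripts, by exact match, was therefore computed for windows of 50 and 100 bases. Of the 390 windows of 50 bases in Stfa1, 231 (59.2%) were unique, and 147 were also present in another copy. The unique share was 65.3% for BC100530, 75.1% for Stfa2l1 and 82.9% for Stfa2. All 363 windows of Stfa3 were unique. With windows of 100 bases, the share was 91.5% for Stfa1, 86.9% for BC100530 and 100% for Stfa2, Stfa2l1 and Stfa3. A count of Stfa1 or BC100530 can thus miss reads that a count of Stfa3 would keep.

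**Figure D1:**
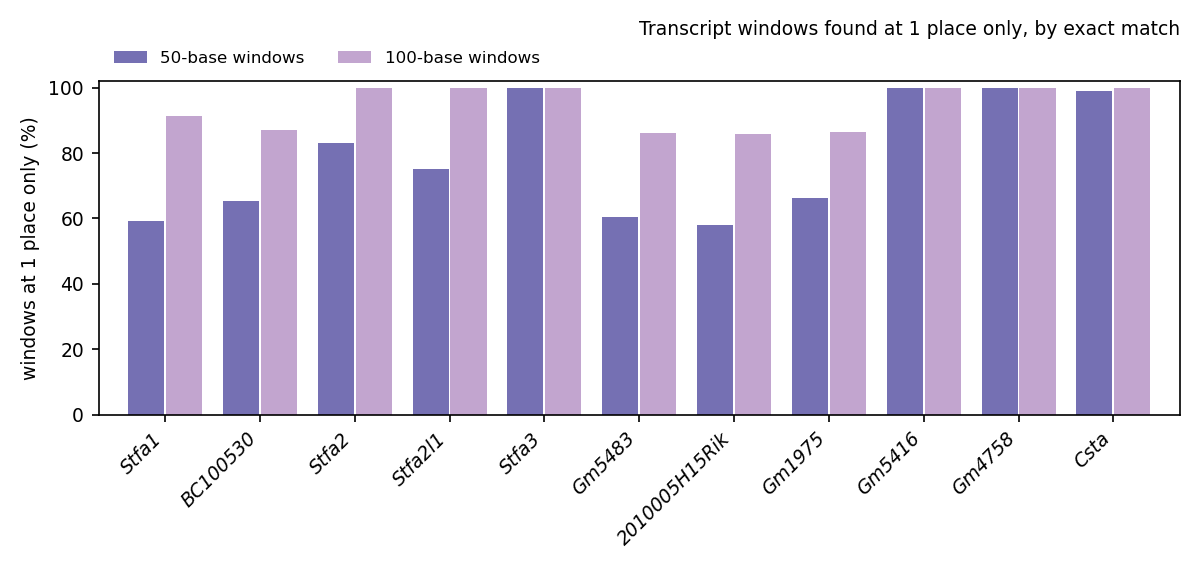
Share of transcript windows, in percent, that occur at only 1 place by exact match, for each stefin A copy and for windows of 50 bases (dark) and 100 bases (light). Stfa3 reaches 100% at both lengths, whereas Stfa1 stands at 59.2% and 91.5%.

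In the NCBIM37 annotation the members lie on chromosome 16 between 36156897 and 36455478, a span of 299 kb. Stfa2l1 (ENSMUSG00000059657.4) occupies 36156897 to 36162034 on the plus strand. Stfa1 (ENSMUSG00000071562.4) occupies 36277213 to 36285457, also on the plus strand. BC100530 (ENSMUSG00000071561.2), at 36359468 to 36367834, Stfa2 (ENSMUSG00000022902.6), at 36404037 to 36421006, and Stfa3 (ENSMUSG00000054905.2), at 36450623 to 36455478, are on the minus strand. Each is annotated as protein coding with 3 exons. BC100530 overlaps the noncoding gene Gm15845 on the other strand over 679 bases. The strand setting of the counting is not stated, so reads there cannot be divided between both genes, although Gm15845 itself had at most 1 count in any library.

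Stfa1 had the highest level of the members. It had 43 and 17 counts in control (1.69 and 0.987 CPM), 115 and 53 in CAF-1 OFF (5.98 and 2.68 CPM) and 6498 and 2043 in HOXA9 OFF cells (314 and 124 CPM). The HOXA9 OFF libraries were both far above the other 4 libraries, and the CAF-1 OFF libraries were both above the controls. Its mean was 219 ± 134 CPM (SD, n = 2) in HOXA9 OFF and 1.34 ± 0.50 CPM (SD, n = 2) in control, a ratio of 163 (92.6 without HOXA9 OFF replicate 1).

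BC100530, the near-identical partner of Stfa1, had 8 and 2 counts in control, 16 and 1 in CAF-1 OFF and 899 and 313 in HOXA9 OFF cells (43.4 and 19.0 CPM). Only the HOXA9 OFF libraries stood apart, and the CAF-1 OFF libraries lay on both sides of the controls. The ratio of the HOXA9 OFF mean to the control mean was 145 (88.2 without HOXA9 OFF replicate 1).

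Stfa2l1 had 3 and 1 counts in control, 1 and 4 in CAF-1 OFF and 167 and 82 in HOXA9 OFF cells (8.06 and 4.97 CPM). Control was at or under a floor of 3 counts per library, and set against that floor the HOXA9 OFF mean was 44.6-fold higher. Stfa3, the member whose windows were all unique, had 1 and 0 counts in control, 0 and 0 in CAF-1 OFF and 152 and 32 in HOXA9 OFF cells (7.33 and 1.94 CPM). Its HOXA9 OFF mean was 31.8-fold above the same floor. This ratio was 13.3 without HOXA9 OFF replicate 1 and 50.2 without HOXA9 OFF replicate 2. Outside HOXA9 OFF, Stfa3 had 1 read in all. For Stfa3, a count of 0 allows a level of up to 0.156 and 0.152 CPM in the CAF-1 OFF libraries and 0.174 CPM in control replicate 2. Over all 6 libraries this limit lies between 0.118 and 0.182 CPM. A ratio to such a floor does not allow for the counting error of a control library that had reads. The intervals below cover counting error only.

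Stfa2 had few reads in all libraries, with 0 and 2 counts in control, 6 and 0 in CAF-1 OFF and 12 and 5 in HOXA9 OFF cells. It had the fewest reads of the 5 genes although its 50-base windows were more often unique than those of its close relative Stfa2l1. The HOXA9 OFF mean was 3.02-fold above the floor of 3 counts per control library (2.08-fold without HOXA9 OFF replicate 1).

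**Figure D2:**
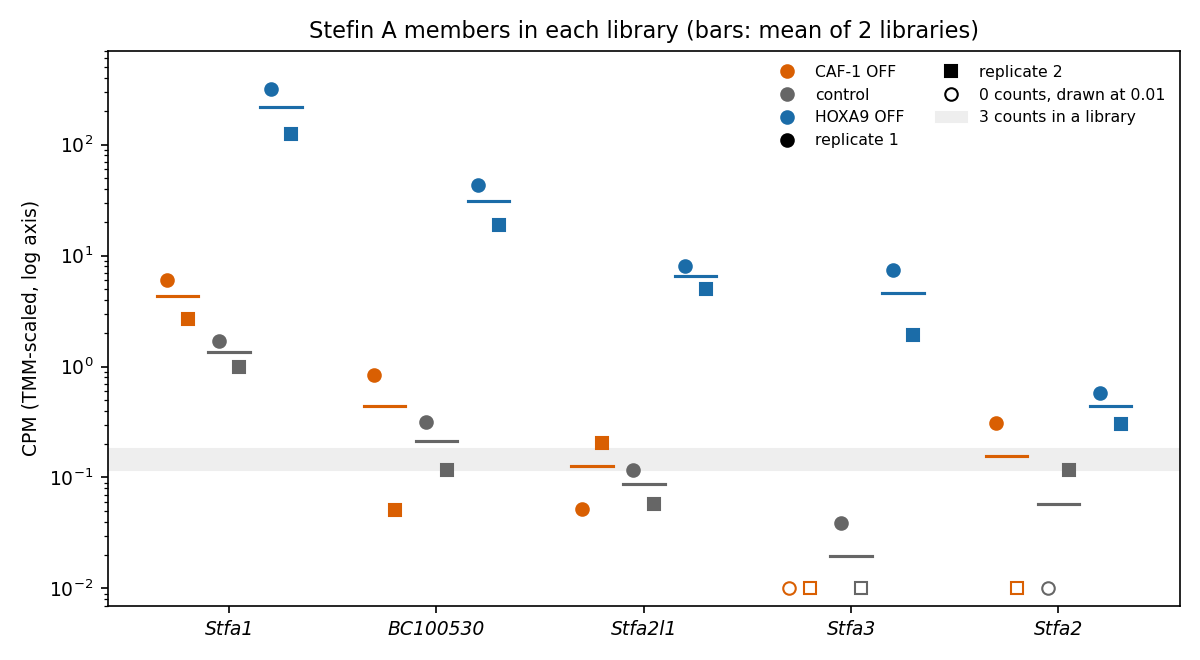
CPM of the 5 members (log axis) in each of the 6 libraries, coloured by group, with the mean of 2 libraries as a bar, a grey band at the level of 3 counts, and open symbols for libraries with 0 counts. The HOXA9 OFF symbols of Stfa1, at 314 and 124 CPM, are the highest, and replicate 1 is above replicate 2 for each member in HOXA9 OFF.

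In HOXA9 OFF, replicate 1 exceeded replicate 2 for each of the 5 members, by 2.53 times for Stfa1, 2.29 times for BC100530, 1.62 times for Stfa2l1, 3.78 times for Stfa3 and 1.91 times for Stfa2. The summed CPM of 10 maturing neutrophil markers (Ltf, Camp, Ngp, Lcn2, S100a8, S100a9, Mmp8, Mmp9, Retnlg, Cxcr2) moved with them, at 848 in replicate 1 and 473 in replicate 2 (791 and 411 without Mmp8), and the 4 eosinophil and mast cell markers summed to 5391 and 3995 CPM, most of it Prg2 (4927 and 3560 CPM), with Cpa3 going the other way (204 and 276 CPM). The 8 monocyte and macrophage markers summed to 504 and 712 CPM, with members on both sides. Ccr2 (67.2 and 212 CPM) and Csf1r (215 and 292 CPM) were higher in replicate 2, and Emr1 (180 and 148 CPM) and Cx3cr1 (17.4 and 8.55 CPM) were higher in replicate 1. The part of these markers in the difference between the libraries was not tested. These values rest on bulk RNA, in which fewer cells of a type and less RNA per cell cannot be told apart.

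Members can be ranked against each other only per length of transcript. In HOXA9 OFF cells, Stfa1 had 498 CPM per kb (714 and 282 in the 2 libraries), BC100530 50.4 (70.1 and 30.7), Stfa2l1 15.7 (19.5 and 12.0), Stfa3 11.3 (17.8 and 4.71) and Stfa2 0.936 (1.23 and 0.644). The ranges of Stfa1, BC100530 and Stfa2 overlapped with no other member, and those of Stfa2l1 and Stfa3 overlapped each other. When CPM was divided by the number of unique 50-base windows instead, per 1000 windows, the means were 947 for Stfa1, 83.8 for BC100530, 23.8 for Stfa2l1, 12.8 for Stfa3 and 1.26 for Stfa2, and the order was the same.

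**Figure D3:**
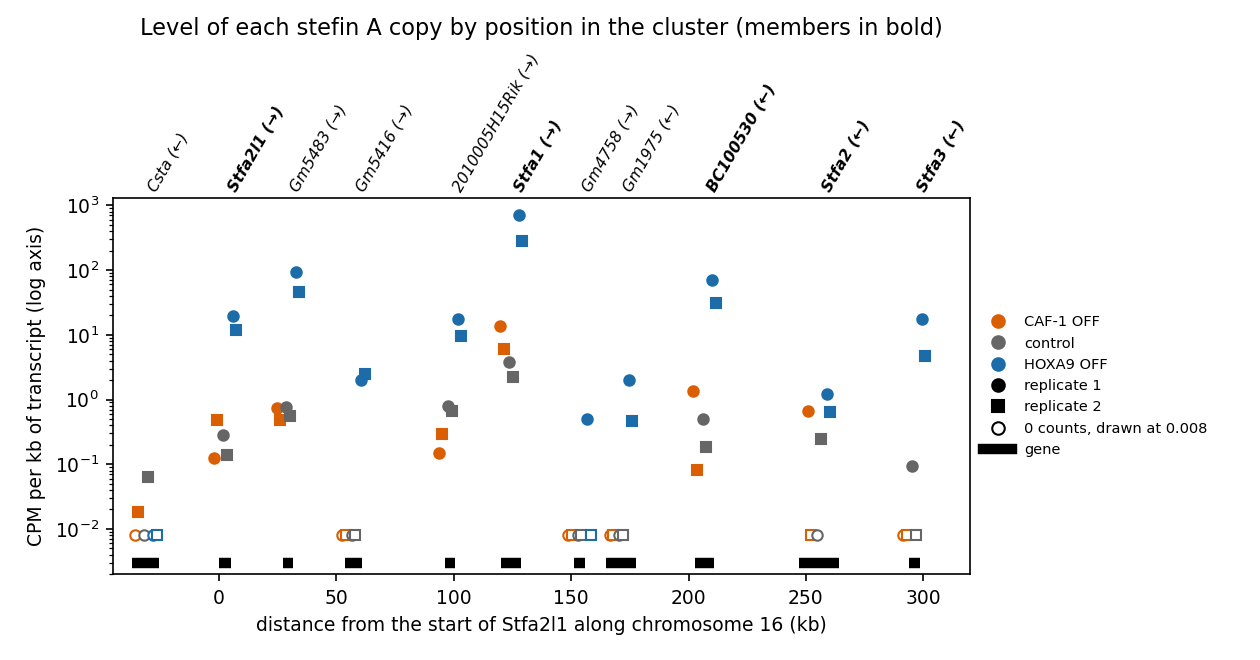
CPM per kb of transcript (log axis) of each stefin A copy in each library against its distance in kb from the start of Stfa2l1, with black blocks for the genes, arrows for the strand and open symbols for 0 counts. Symbols of a gene are spread sideways so that they can be told apart. Stfa1, near the middle of the cluster, has the highest HOXA9 OFF level (714 and 282 CPM per kb).

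Within a library, the composition of the stefin A reads was compared over 11 copies, which are the 5 members, Gm5483, 2010005H15Rik, Gm5416, Gm4758, Gm1975 and Csta. These copies together had 70 and 33 reads in control, 145 and 65 in CAF-1 OFF and 8688 and 2855 in HOXA9 OFF cells. Stfa1 took 74.8% of them (95% exact binomial interval 73.9 to 75.7) and 71.6% (69.9 to 73.2) in the HOXA9 OFF libraries. In control it took 61.4% (49.0 to 72.8) and 51.5% (33.5 to 69.2), and in CAF-1 OFF 79.3% (71.8 to 85.6) and 81.5% (70.0 to 90.1). The lowest CAF-1 OFF share was above the highest control share, but the interval of control replicate 1 overlapped those of both CAF-1 OFF libraries. BC100530 took 10.3% (9.71 to 11.0) and 11.0% (9.84 to 12.2) of the HOXA9 OFF reads.

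**Figure D4:**
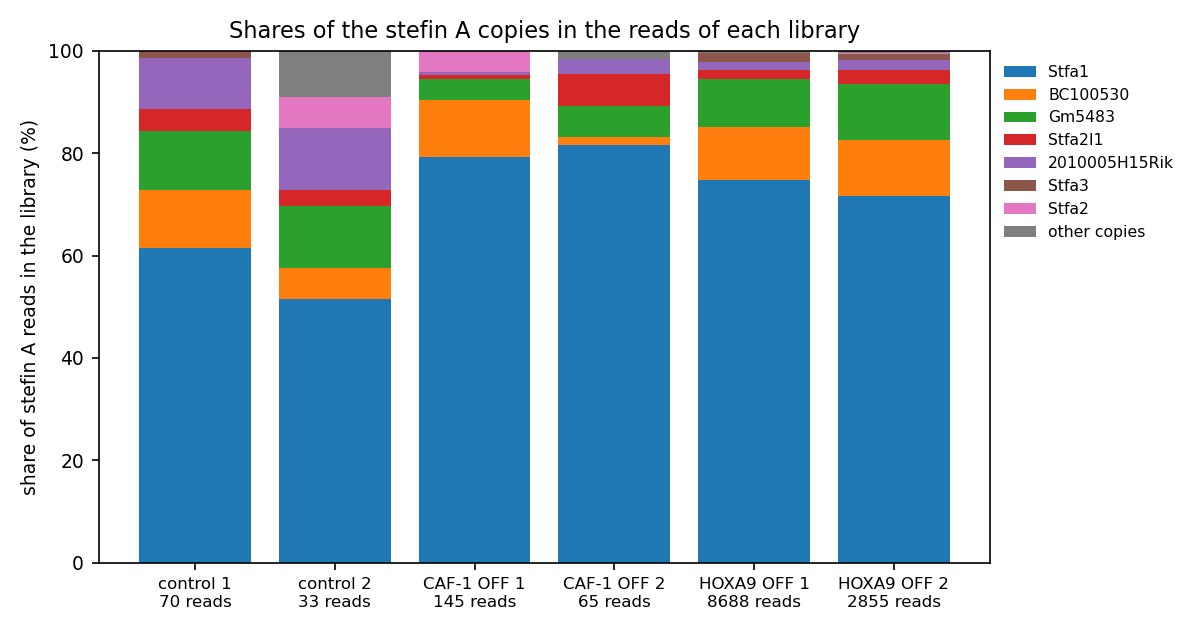
Share, in percent, of each stefin A copy in all stefin A reads of a library, with the number of reads under each bar. Stfa1 takes the largest share in every library, from 51.5% in control replicate 2 to 81.5% in CAF-1 OFF replicate 2.

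The comparison of CAF-1 OFF with control is the only one in which the members were tested, and its control libraries are also those of the comparison that chose them. Of the 5 genes, 4 entered the test, and Stfa2 did not pass the expression filter. In a fit of the 4 CAF-1 OFF and control libraries alone, Stfa1 was the only member that passed, so BC100530, Stfa2l1 and Stfa3 entered the test through the HOXA9 OFF libraries, in which they are high. Stfa1 is therefore the only member whose test does not depend on the HOXA9 OFF libraries letting it in, and values of the other 3 are given as a description. The spread used in the test of Stfa1 is still estimated over all 6 libraries, with HOXA9 OFF among them. Stfa1 was not called at FDR under 0.05 and a 1.5-fold change by edgeR's quasi-likelihood test, DESeq2 or the edgeR exact test, beside 0.0321% of the 12460 genes called by the quasi-likelihood test.

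Stfa1 was 3.24 times as high in CAF-1 OFF as in control by the ratio of means (4.33 ± 2.33 against 1.34 ± 0.50 CPM, SD, n = 2), and 2.01 times without CAF-1 OFF replicate 1. The fitted log2 fold change was 1.64 ± 0.69 (SE), with FDR = 0.469 by edgeR over all genes, and without CAF-1 OFF replicate 1 it was 0.94. Its unadjusted p was just above 0.05, a level that 10.7% of all genes tested passed. It was under 0.05 with library size alone, with the 4 libraries alone, with the replicate block, by DESeq2, by the edgeR exact test and without either HOXA9 OFF library or CAF-1 OFF replicate 2, with an FDR from 0.0978 to 0.461 in these fits. Both CAF-1 OFF libraries were above both controls, as for 20.1% of all genes tested. The call depends on the expression filter, because without it 19883 genes entered the edgeR fit, 378 of them were called and Stfa1 was among these (log2 fold change 1.62, FDR = 0.00129).

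For the other members, with 0 to 16 counts in each CAF-1 OFF and control library, a difference was not detectable at this depth. The edgeR log2 fold change was 0.90 ± 1.16 (SE) for BC100530, 0.44 ± 0.88 (SE) for Stfa2l1 and -2.22 ± 2.55 (SE) for Stfa3. BC100530 rested on 1 library, since without CAF-1 OFF replicate 1 its value was -2.06. In CAF-1 OFF 0 of the 9 tested maturing neutrophil markers were called by edgeR, beside 0.0321% of all genes tested. The maturing neutrophil markers together summed to 437 and 699 CPM in CAF-1 OFF libraries, against 110 and 101 CPM in the controls. Mmp8, which encodes neutrophil collagenase, took most of this sum (332 and 630 CPM in CAF-1 OFF libraries, 70.1 and 40.5 in the controls), and without it, a choice made after its values were seen, the other 9 markers summed to 104 and 68.9 CPM against 40.0 and 60.7 CPM. Lcn2 took most of that remainder (66.1 and 37.0 CPM in CAF-1 OFF libraries, 30.7 and 53.1 in the controls). At lower levels, S100a8 had 17.4 and 16.6 CPM against 2.51 and 2.32, and S100a9 had 5.61 and 5.27 CPM against 1.02 and 0.929. Ngp, Cxcr2, Ltf, Camp and Mmp9 were also higher in both CAF-1 OFF libraries than in both controls. So were markers of other cell types, none of them called by edgeR. These were the mast cell and basophil genes Mcpt8 (107 and 44.1 CPM against 34.8 and 32.6) and Cpa3 (468 and 178 CPM against 158 and 128), the eosinophil gene Prg2, and Cx3cr1 (6.70 and 3.09 CPM against 2.04 and 0.871), Mrc1 and Csf1r of the monocyte and macrophage list. In that list Emr1 (17.1 and 25.2 CPM against 40.7 and 19.6), Cd68 and Ccr2 overlapped the controls, as did the eosinophil gene Epx. The monocyte and macrophage list summed to 556 and 415 CPM against 400 and 568 CPM. Mcpt8, Cpa3 and Cx3cr1, like Stfa1, were higher in CAF-1 OFF replicate 1 than in replicate 2. So were Prg2 and the neutrophil markers Ngp (6.65 and 2.28 CPM), Ltf (1.30 and 0.557 CPM) and Lcn2. S100a8, S100a9, Cxcr2 and Mmp9 differed little between these replicates. Mmp8, Camp, Mrc1 and Csf1r were lower in replicate 1. The part of these markers in the Stfa1 values was not tested.

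The fitted log2 differences of the HOXA9 OFF comparison, given as a description, were 7.30 for Stfa1, 7.31 for Stfa3, 7.04 for BC100530 and 6.04 for Stfa2l1. With 1 library left out, they ranged from 6.48 (without HOXA9 OFF replicate 1) to 7.82 (without HOXA9 OFF replicate 2) for Stfa1, from 6.04 (without HOXA9 OFF replicate 1) to 9.44 (without control replicate 1) for Stfa3, from 6.33 to 7.98 for BC100530 and from 5.65 to 6.65 for Stfa2l1, with the lowest and highest values of both without the same libraries as for Stfa3. The values of Stfa3 and Stfa2l1 depend on how counts near 0 in control are handled in the fit, and the ratios to the floor above do not. Both HOXA9 OFF libraries were above both controls for each of the 4, as for 35.1% of all genes tested. CAF-1 OFF and HOXA9 OFF share these control libraries, and the means of Stfa1 were 4.33 CPM and 219 CPM, respectively.

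The sequences before the transcription start are shown because the members were high in the same libraries. RefSeq promoter sequences (GRCm38.p6) were matched for Stfa1, Stfa2, Stfa3 and Stfa2l1. The lines below, 5′ to 3′ on the strand of the gene, run from 90 to 19 bases before the annotated start, with the longest common run of this region, ACCTTTAAAACCC, in capitals. They lie at chr16:36277058-36277129 (plus strand), chr16:36455411-36455482 (minus strand), chr16:36156721-36156792 (plus strand), chr16:36408382-36408453 (minus strand) and chr16:36184122-36184193 (plus strand), the last being listed by RefSeq as Cstdc4.
Stfa1: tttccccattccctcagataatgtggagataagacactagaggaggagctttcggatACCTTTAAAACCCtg
Stfa3: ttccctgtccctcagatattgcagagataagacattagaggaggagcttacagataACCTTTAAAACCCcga
Stfa2l1: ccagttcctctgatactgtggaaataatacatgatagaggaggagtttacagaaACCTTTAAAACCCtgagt
Stfa2: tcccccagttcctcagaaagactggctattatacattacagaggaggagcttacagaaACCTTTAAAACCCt
Gm5483: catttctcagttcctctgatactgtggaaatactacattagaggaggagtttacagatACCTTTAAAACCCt
The run is in 4 of 4 member windows by the way it was chosen. It was found in 9 of the 32851 windows in the RefSeq table (0.0274%), on either strand, each window reaching from 250 bases before to 50 after a start. Of these 9, 6 are windows of stefin A copies matched by symbol. The genes of the remaining windows were not identified, and BC100530, Gm4758 and Gm1975 had no matched window. A longer run common to the 4 member windows, GGATCATTTCTTCTCAG, lies outside the stretch shown. It was found in 6 of the 32851 windows (0.0183%), 5 of them of matched stefin A copies. Between 19 and 23 bases lie between the run and the start in these genes, and it contains the TATA-like letters TTTAAA, which 13.2% of all windows hold. The C/EBP-like letters TTGCNNAA were found in 1 of 4 member windows, that of Stfa1, against 10.8% of all windows. Among ETS-like letters, AGGAAG was found for Stfa1 and Stfa3 (35.4% of all windows) and CGGAAG for none of the 4 (16.9% of all windows). Stfa2, which had few reads throughout, holds the common run as well. A match of letters is not a measured binding site.

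Of the copies that are no members, 3 entered the fit, and none of these passed the expression filter without the HOXA9 OFF libraries. They entered because they are high there, so their values are given as a description. Some of them share windows with the members or with each other. Gm5483 had 8 and 4 counts in control, 6 and 4 in CAF-1 OFF and 804 and 311 in HOXA9 OFF cells. The ratio of the HOXA9 OFF mean to the control mean was 105 (69.0 without HOXA9 OFF replicate 1), and the CAF-1 OFF counts were within the range of the control counts. 2010005H15Rik, whose 75-base stretch is the same as that of Gm5483, had 7 and 4 counts in control, 1 and 2 in CAF-1 OFF and 125 and 54 in HOXA9 OFF cells. The ratio was 18.3, and both CAF-1 OFF libraries were below both controls.

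Gm5416, all of whose windows were unique, had 0 counts in the control and CAF-1 OFF libraries and 12 in each HOXA9 OFF library, which is at least 4.47-fold higher on the floor of 3 counts per library. The remaining copies did not pass the expression filter. Gm1975 had 16 and 3 counts in HOXA9 OFF and 0 elsewhere, Gm4758 had 3 and 0 in HOXA9 OFF and 0 elsewhere, and Csta had at most 3 counts in any library. With at most 8 counts of any of these copies in control and CAF-1 OFF libraries, a difference between these groups was not detectable at this depth.

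Of 16 cystatin genes in the counts, 3 passed the expression filter. Cstb, which encodes stefin B, the broadly expressed cytosolic relative of stefin A, had 37.5 and 49.6 CPM in control and 116 and 155 CPM in HOXA9 OFF cells. It rose by 1.64 ± 0.25 (log2, SE; edgeR FDR = 0.00483). Cst3, which encodes the secreted cystatin C, rose from 217 and 220 CPM to 462 and 445 CPM (1.05 ± 0.15, edgeR FDR = 0.00359). Cst7, which encodes cystatin F of granules and lysosomes of immune cells, had a value of -0.57 ± 0.21 (FDR = 0.0864). In CAF-1 OFF 0 of these 3 genes were called by edgeR and 0 had an unadjusted p under 0.05, beside 0.0321% and 10.7% of all genes tested. HOXA9 OFF cells thus had more transcript of both stefin B and cystatin C.

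The papain-like proteases that stefins inhibit were measured in the same libraries, together with legumain, which some other cystatins inhibit and stefins do not. Of 11 cysteine cathepsin and legumain genes, 8 were tested, and 4 were called higher and 0 lower in HOXA9 OFF, beside 13% and 8.97% of all genes, with a median log2 fold change of 1.05 beside -0.0035 over all genes. Ctss, which encodes cathepsin S of antigen-presenting cells, had 0.707 and 1.63 CPM in control, 1.25 and 1.22 in CAF-1 OFF and 43.6 and 71.4 in HOXA9 OFF cells. It rose by 5.68 ± 0.41 (log2, SE; edgeR FDR = 0.000493). Ctsb, which encodes the lysosomal cathepsin B, rose by 1.57 ± 0.14 (edgeR FDR = 0.000801), from 217 and 237 CPM to 597 and 749 CPM.

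Ctsc, which encodes the dipeptidyl peptidase that activates neutrophil serine proteases, rose by 1.19 ± 0.11 (edgeR FDR = 0.000986). Ctsz rose by 0.91 ± 0.23 (edgeR FDR = 0.0242), a call that was lost without control replicate 1 (FDR = 0.117), control replicate 2 (FDR = 0.0545) or HOXA9 OFF replicate 2 (FDR = 0.0877). Replicate 2 had the higher level of Ctss, Ctsb and Ctsz in HOXA9 OFF, the opposite of Stfa1, and replicate 1 the higher level of Ctsc (277 and 253 CPM). In CAF-1 OFF 0 of the 8 genes were called by edgeR, with 1 (Ctsc) at an unadjusted p under 0.05, beside 0.0321% and 10.7% of all genes tested.

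Among 4 cathepsins that are no cysteine proteases, the aspartic protease genes Ctse (4.10 ± 0.56, edgeR FDR = 0.00317) and Ctsd (1.21 ± 0.30, FDR = 0.0249) and the carboxypeptidase gene Ctsa (0.72 ± 0.13, FDR = 0.00711) were higher in HOXA9 OFF. Ctsg, which encodes a serine protease of primary granules and is in the progenitor list, was lower (-0.68 ± 0.12, FDR = 0.00778). The call of Ctsd was lost without either control library or HOXA9 OFF replicate 2, with FDR from 0.0569 to 0.108. Beside these 3 higher and 1 lower of 4 stand 13% and 8.97% of all genes tested. In CAF-1 OFF 0 of the 4 were called by edgeR, beside 0.0321% of all genes.

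Genes next to the cluster were compared in the same way. Within 500 kb on either side, 25 genes were in the counts and 17 were tested. In HOXA9 OFF 4 were called higher and 1 lower, beside 13% and 8.97% of all genes tested, and the 5 of 17 called in all stand beside 22%. These were Parp14, an ADP-ribosyltransferase gene (1.98 ± 0.30, edgeR FDR = 0.00443), Slc15a2, a peptide transporter gene (1.42 ± 0.30, FDR = 0.0143), Hcls1, which encodes a cortactin-like protein of blood cells (1.06 ± 0.11, FDR = 0.00154), Dtx3l, a ubiquitin ligase gene (0.75 ± 0.13, FDR = 0.00686), and Hspbap1 (-1.09 ± 0.21, FDR = 0.00966). The median over the 17 was 0.30 and the range was -1.09 to 1.98. The genes called changed with single libraries left out. Slc15a2 was lost without either control library or HOXA9 OFF replicate 1, and Hspbap1 without control replicate 2 or HOXA9 OFF replicate 1, while Cd86 and Gm15564 were gained without control replicate 2, Ccdc58 without control replicate 1 and Parp9 without HOXA9 OFF replicate 1.

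In CAF-1 OFF, 0 of the 17 neighbours were called by edgeR and 1 (Cd86) had an unadjusted p under 0.05, beside 0.0321% and 10.7% of all genes tested. The 3 other genes annotated between the members, Gm10813, Gm10913 and Gm15845, had at most 3 counts in any library.

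**Figure D5:**
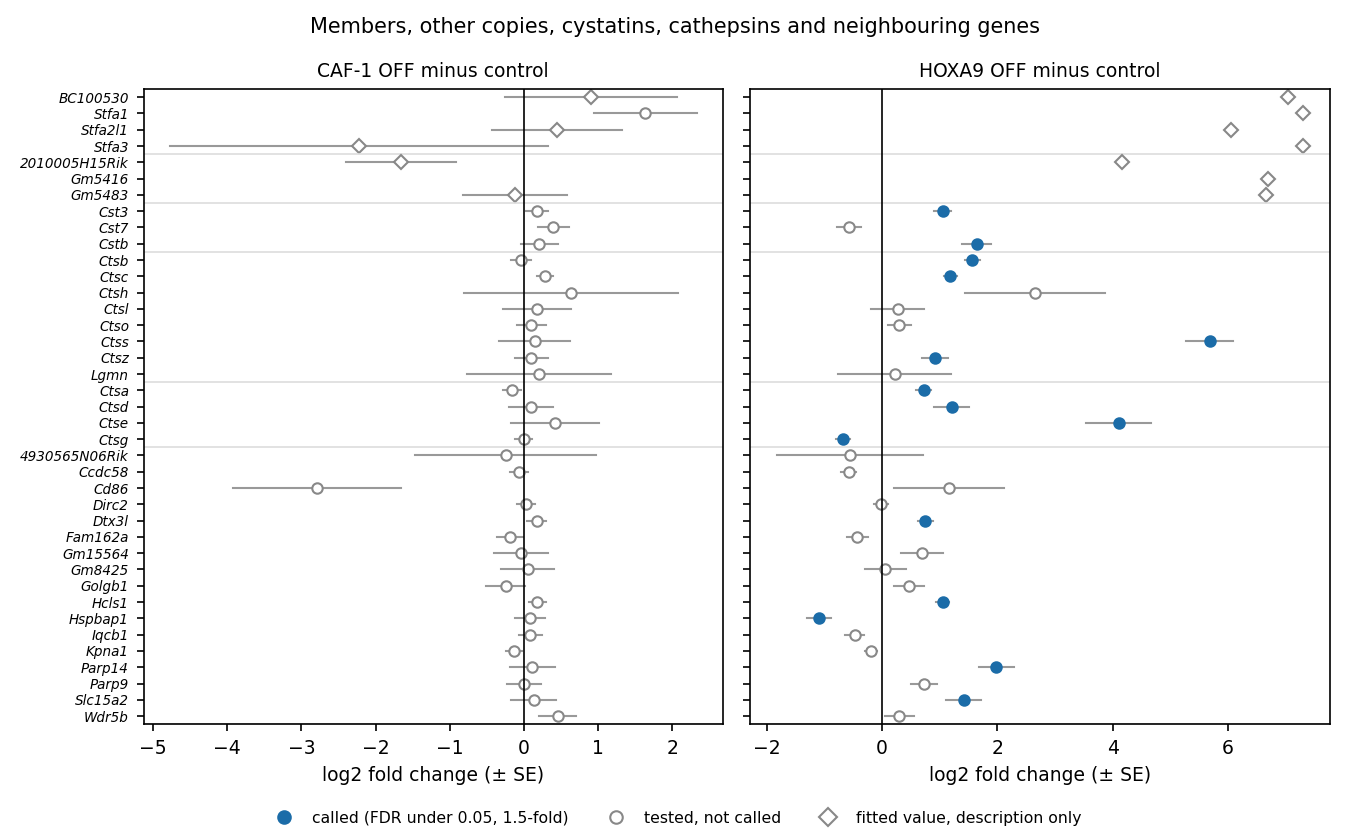
Fitted log2 fold changes (± SE) against control in CAF-1 OFF (left) and HOXA9 OFF (right) for the members, the other copies, cystatins, cysteine cathepsins with legumain, other cathepsins and neighbouring genes, from top to bottom. Filled points are called, open points are tested and not called, and open diamonds are values given as a description, for genes that HOXA9 OFF chose or let into the fit. Copies with 0 counts in both groups have no point. No point is filled on the left.

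The genes whose pattern over the 6 libraries was most like that of Stfa1 were sought among 9612 candidates with a mean of at least 5 CPM. All stefin A copies were left out of these candidates. Nearness was measured by the root mean square difference of centred log2 CPM. With so few libraries this is a description. The nearest was Ltf (0.56), which encodes lactoferrin of secondary granules, with 0.471 and 0.174 CPM in control, 1.30 and 0.557 in CAF-1 OFF and 31.9 and 17.1 in HOXA9 OFF cells. Next came Chi3l3 (0.66), a chitinase-like gene, Camp (0.75), which encodes cathelicidin, Epx (0.78), which encodes eosinophil peroxidase, 4930438A08Rik (0.79), Tgm2 (0.79), Dennd2a (0.81) and S100a9 (0.81), which encodes a calprotectin subunit. For BC100530 the nearest of the same candidates were Ltf (0.81), 4930438A08Rik (0.92), Epx (1.06), Dennd2a (1.07), Lsp1 (1.07), Camp (1.08), Emr4 (1.09) and Irf4 (1.13). Ltf was the closest of these candidates to both members. How near the stefin A copies lie to each other was not ranked here. Ltf, Camp and S100a9 are also in the neutrophil marker list, and Epx is in the eosinophil and mast cell list.

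The markers of cell types that could hold stefin A transcript were measured beside these values. In HOXA9 OFF, of the 10 neutrophil markers 9 were tested by edgeR (not Retnlg), and 8 were called higher and 0 lower, and of 8 progenitor markers tested 4 were called lower and 0 higher, beside 13% of all genes called higher and 8.97% lower. The 4 eosinophil and mast cell markers Epx, Prg2, Mcpt8 and Cpa3 summed to 5391 and 3995 CPM in HOXA9 OFF, 1131 and 745 in control and 1724 and 1207 in CAF-1 OFF, with 2 of 4, Epx and Prg2, called higher in HOXA9 OFF. Prg2 took most of this sum (933 and 582 CPM in control), Cpa3 was not called, and Mcpt8, also not called, was at a lower level in both HOXA9 OFF libraries than in both controls. Of 8 monocyte and macrophage markers 6 were tested, and 4 were called higher and 1 lower in HOXA9 OFF. The part of these cell types in the stefin A values was not tested. Keratinocytes are a further known source of stefin A, and their markers Krt5, Krt14, Krt1, Krt10 and Dsg3 had at most 3 counts in every library. The sixth marker, Ivl, had 3.34 and 1.86 CPM in control, 2.18 and 1.92 in CAF-1 OFF and 4.15 and 4.43 in HOXA9 OFF cells and was not called in HOXA9 OFF by edgeR (0.71 ± 0.35, FDR = 0.176).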

How the data were processed

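The authors used STAR for alignment to mm9, the mouse genome build, and HTSeq-count for counting by gene symbol. Deposited values are raw counts that were not normalized. The gene annotation, strand setting, overlap mode and read length are not given in the sources used here. The libraries were directional, and 5 tally lines per file were kept out of the gene counts, which ranged from 16773560 to 25170898 per library.

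Genes were kept by filterByExpr (12460 genes), library sizes were scaled by TMM (factors 0.954 to 1.03), and a model with a mean for each group was fitted over the 6 libraries with edgeR 4.0.16 (quasi-likelihood test, R 4.3.3, limma 3.58.1). A gene was called at a Benjamini-Hochberg FDR under 0.05 over all genes tested and a fold change of at least 1.5. The procedure was checked on simulated counts. Alternatives were DESeq2 1.42.0 (Wald test, size factors), the edgeR exact test, library size alone, no filter, a replicate block, fewer libraries and leaving out each library. Samples were grouped by their titles. With 2 libraries a group, a permutation test of a single value cannot go below p = 0.333, so none was used. Replicates differed by more than sampling noise in every group (chi-square per degree of freedom 22.1 to 29.7).

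The members and gene lists were chosen with earlier results of these data known. Named genes were the members, other stefin A copies, genes called in a list and Chaf1b. The 8 genes closest to Stfa1 and to BC100530 (prior count 2), with stefin A copies left out, were also named. Genes annotated within 500 kb of the cluster (GENCODE, NCBIM37) and not at several loci were taken as neighbours.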

Additional observations from a re-analysis of the deposited data

Results flagged for a closer look

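Reads that fell in no annotated gene were not used in any comparison. Per 100 gene-assigned reads they numbered 7.84 in HOXA9 OFF replicate 1 and 8.26 in HOXA9 OFF replicate 2, above both control libraries (6.87 and 7.15), and 5.95 and 7.30 in CAF-1 OFF. Their part in the stefin A values was not tested.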

How the results depend on the processing

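Stfa1 was not called in CAF-1 OFF under the other scalings, DESeq2, the edgeR exact test or the 4-library fit. In the main fit 0.0321% of all genes tested were called. BC100530, Stfa2l1 and Stfa3 entered the fit through the HOXA9 OFF libraries, and a difference was not detectable at their counts. Their lack of a call is therefore not given as a result. Without the expression filter 1 member (Stfa1) was called, as was 1 neighbouring gene (Cd86), against 0 each with it, and HOXA9 OFF calls went from 5 to 8 for neighbours and from 4 to 5 for cysteine cathepsins and legumain (Ctsh). With 1 library left out, HOXA9 OFF calls ranged from 3 to 4 for cysteine cathepsins and legumain, and 4 to 5 for neighbours, not always the same genes, and CAF-1 OFF calls from 0 to 0 for each list. The calls of Cstb and Cst3 in HOXA9 OFF were lost under none of the alternatives run. A lone library of a group was then assumed to vary like the other groups.

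The CAF-1 OFF log2 fold change of Stfa1 kept its sign throughout, from 0.94 without CAF-1 OFF replicate 1 to 2.13 without control replicate 1, with edgeR FDR = 0.0978 in the exact test. With 1 library left out, members with few counts moved further. BC100530 ranged from -2.06 (without CAF-1 OFF replicate 1) to 1.86, Stfa2l1 from -0.75 (without CAF-1 OFF replicate 2) to 1.07, both changing direction, and Stfa3 from -2.88 to 0 (without control replicate 1, when all its counts compared are 0). These 3 genes did not pass the filter in the 4-library fit and have no value there. Over all genes, CAF-1 OFF calls numbered 4 by the quasi-likelihood test, 2 with the block, 9 with 4 libraries, 192 by DESeq2, 243 by the exact test and 378 without the filter, and the cause was not tested.

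The labels do not say whether libraries with the same replicate number are paired, and the values leave this undecided. The correlation of same-numbered deviations was -0.18 for CAF-1 OFF and control and 0.46 for control and HOXA9 OFF. For CAF-1 OFF and HOXA9 OFF it was 0.033. With the replicate number as a block, Stfa1 was not called in CAF-1 OFF (1.70, edgeR FDR = 0.119) and 7 neighbours were called in HOXA9 OFF. Low counts limit every member outside HOXA9 OFF.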

Other observations

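Alignments of reads that mapped to several places, which HTSeq-count leaves out, numbered from 89.6 to 107 per 100 gene-assigned reads in the 6 libraries, with 91.2 and 89.6 in HOXA9 OFF, 100.0 and 107 in control and 107 and 92.8 in CAF-1 OFF. How many of them came from the stefin A copies cannot be read from the counts.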
